A study of Homo sapiens with 4 samples.

Results

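The cells described here are LNCaP cells in which no transcript of the histone gene H2AFJ was captured, in the untreated and the briefly treated culture, before any resistance had been selected. They were chosen in single-cell RNA sequencing (scRNA-seq) data from the LNCaP and LNCaP-ENZ48 libraries. Each cell had to have at least 1500 detected genes, at least 5000 UMIs (unique molecular identifiers, the tags by which captured RNA molecules are counted) and under 20% of its UMIs from mitochondrial genes. Of 2019 LNCaP cells 64 had 0 H2AFJ UMIs, and of 4565 LNCaP-ENZ48 cells 290 had none, so that 354 of 6584 cells were H2AFJ-negative. The H2AFJ count of each cell chose them and is therefore a description, not a result.

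LNCaP is an androgen-sensitive line grown from a lymph node metastasis of a human prostate cancer. The LNCaP library was made from cells given 0.1% of the solvent DMSO for 48 h, and LNCaP-ENZ48 from the same line after 48 h in 10 µM enzalutamide (ENZ), an antiandrogen given against prostate cancer. RES-A and RES-B are ENZ-resistant derivatives of LNCaP kept in 10 µM ENZ. RES-A had been passaged for months in rising ENZ and RES-B in the related compound RD-162, and each is a single derived line. All 4 cultures were sorted for living cells, and each group is 1 library. Cells of 1 library are not replicates, so no p-value is given, no difference has a replicate check, and every 95% interval covers counting error only. Levels are UMIs summed over a set of cells and given as CPM, the summed UMIs of a gene scaled to an equal total in every set.

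H2AFJ encodes H2A.J, a variant of histone H2A. Most histone genes are transcribed in S phase, when new DNA is packed, and their transcripts mostly lack a poly(A) tail. Variants such as H2A.J are made outside S phase from polyadenylated transcripts, and H2A.J is known for accumulating in senescent fibroblasts. Luminal prostate cells respond to androgens, and KLK3, which they induce, encodes prostate-specific antigen.

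H2AFJ (now H2AJ) lies on the plus strand of chromosome 12 from 14774405 to 14778002 (GRCh38, GENCODE 44). In the 2 libraries made before resistance it was abundant, at 341 CPM (335.9 to 345.6) in LNCaP and 359 CPM (355 to 364) in LNCaP-ENZ48, with a median of 8 and 5 UMIs per cell. No H2AFJ UMI was counted in RES-A or RES-B among 58657527 and 57709230 UMIs, where 3 UMIs would be 0.0511 and 0.0520 CPM. The counting keeps only reads that map to 1 gene, and H2A genes are near copies of each other, so both the H2AFJ level and its count of 0 in RES-A and RES-B may depend on the reference used in counting. The 250 bases before the gene's start are shown because this promoter is the one whose transcript separates the cells compared here. They are given 5′ to 3′ from RefSeq (GRCh38.p14, chr12:14774155-14774404, plus strand), with each CCAAT or, on the other strand, ATTGG in capitals.
H2AFJ: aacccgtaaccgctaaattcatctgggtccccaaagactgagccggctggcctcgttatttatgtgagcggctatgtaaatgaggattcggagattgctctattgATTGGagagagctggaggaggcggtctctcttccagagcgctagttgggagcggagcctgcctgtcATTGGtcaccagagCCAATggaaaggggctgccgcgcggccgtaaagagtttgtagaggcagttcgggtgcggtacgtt
The window holds 3 such matches and 16 CpG dinucleotides, at a GC content of 55.2%. At least 1 match stood in 32.0% of 35116 promoter windows of this length, and 3 or more in 2.81%, and the median window held 11 CpG. No file used here measures this window.

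H2AFJ-negative cells were 3.17% of LNCaP (2.45 to 4.03) and 6.35% of LNCaP-ENZ48 (5.66 to 7.10). LNCaP cells were deeper, with a median of 26502 UMIs against 13968, and a shallow cell misses a transcript more often. If every cell of a library had held H2AFJ at the same share of its UMIs, Poisson sampling would have left 9.39 LNCaP cells and 59.8 LNCaP-ENZ48 cells without a UMI. The counts of 64 and 290 were 6.81 and 4.85 times these numbers. The shallowest cells, with 5000 to 7500 UMIs, held 11 of the LNCaP and 20 of the LNCaP-ENZ48 negatives, against the 5.78 and 11.8 that sampling gave. The ratio was larger in deeper cells. Among LNCaP cells with 20000 to 30000 UMIs, 25 of 981 (2.55%) were negative against 0.291 from sampling, and above 30000 UMIs 9 of 688 were. Among LNCaP-ENZ48 cells with 15000 to 20000 UMIs 67 of 1247 (5.37%) were negative against 3.08 from sampling, and of the 88 cells above 30000 UMIs 0 were, which allows a share of up to 3.41% at 3 counts, with an exact upper bound of 4.11%.

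**Figure D1:**
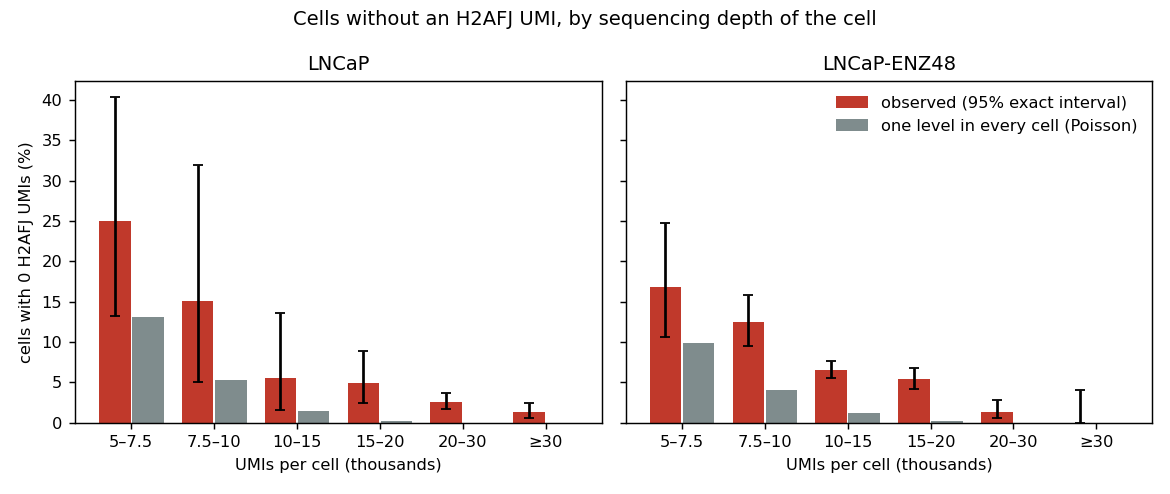
Percent of cells with 0 H2AFJ UMIs (vertical axis) by total UMIs per cell (horizontal axis) in LNCaP and LNCaP-ENZ48, with exact binomial 95% intervals and the share that Poisson sampling at the library's own H2AFJ level would leave. The share of negatives was lower at greater depth, from 25% to 1.31% in LNCaP and from 16.8% to 0% in LNCaP-ENZ48, and lay above the sampling share in every LNCaP range and in every LNCaP-ENZ48 range below 30000 UMIs.

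When every cell was thinned to 5000 UMIs, 545 LNCaP cells (27.0%) and 1101 LNCaP-ENZ48 cells (24.1%) had no H2AFJ UMI, against 340 and 731 from sampling. H2AFJ thus varied among cells more than sampling gives, and so did other genes. Among the 153 genes of LNCaP and the 134 of LNCaP-ENZ48 within a ratio of 0.8 of its level in either direction, the ratio of observed to sampled negatives had a median of 2.32 and 1.5, and H2AFJ ranked 11th and 10th. PEG3, an imprinted zinc finger gene, led in LNCaP with a ratio of 46.1, and BTG1, an antiproliferative gene, led in LNCaP-ENZ48 with 16.8.

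To ask what else differed in H2AFJ-negative cells, each was compared with 3 cells of the same library that had at least 2 H2AFJ UMIs and the nearest total UMIs, called H2AFJ-positive cells below. This gave 192 controls in LNCaP and 870 in LNCaP-ENZ48, with means of 8.51 and 5.68 H2AFJ UMIs. Median depths were equal within 2 UMIs (20899 and 20900.5 in LNCaP, 12575.5 and 12574.5 in LNCaP-ENZ48). H2AFJ-negative cells had a median of 4288.5 detected genes against 4314.5 in LNCaP, and 3073 against 3105 in LNCaP-ENZ48. Their median mitochondrial shares were 9.49% against 9.67%, and 8.96% against 9.5%. Cells with the highest doublet scores made up 0 of 64 against 1 of 192, and 6 of 290 (2.07%) against 16 of 870 (1.84%). Barcodes that recur in RES-A or RES-B were 1 of 64 against 0 of 192, and 1 of 290 against 4 of 870.

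The H2AFJ-negative cells carried the luminal genes of LNCaP. FOXA1, a pioneer transcription factor, was at 172 against 159 CPM in LNCaP and 154 against 152 CPM in LNCaP-ENZ48. All 10 genes of the luminal list were measured, and their median log2 ratio was -0.18 in LNCaP and -0.03 in LNCaP-ENZ48, beside medians over all genes of -0.03 and -0.02. The largest differences in that list were in the keratin gene KRT18, at 334 against 461 CPM (log2 -0.47) and 371 against 441 CPM (log2 -0.25), and in HOXB13, a homeobox factor of the prostate, at 110 against 151 CPM and 149 against 176 CPM. Their summed level was 1712 against 1927 CPM and 1955 against 2076 CPM. Markers of other cells were at or near 0 in H2AFJ-negative cells. Endothelial and basal markers had 0 UMIs in both libraries, the 8 immune markers summed to 1.57 and 3.0 CPM, and the 7 stromal markers to 12.6 and 5.45 CPM (5.12 and 5.45 CPM in controls). The 7 neuroendocrine markers summed to 19.7 and 19.1 CPM, mostly from ENO2.

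Few genes differed by 2-fold or more. Among 2505 genes with at least 50 CPM in either set of LNCaP cells, 3 (0.12%) were at least 2-fold higher and 23 (0.918%) at least 2-fold lower in H2AFJ-negative cells. In LNCaP-ENZ48 0 of 2320 genes (0%) were at least 2-fold higher and 5 (0.216%) at least 2-fold lower. No test was possible. The 5 were S100P, MT1G, SYT4, KLK3 and CAMK2N1, and all of them were among the 23 of LNCaP. The others of the 23 were mostly genes of mitosis (HMMR, CENPE, CENPF, CCNB2, MKI67, TOP2A and BIRC5 among them), and the 3 that were higher were MDK, HMOX1 and FLNA. Of 2222 genes that reached the minimum in both libraries, 533 were higher in H2AFJ-negative cells in both, 912 lower in both and 777 opposite.

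KLK3 was lower in H2AFJ-negative cells of both libraries. It stood at 220 CPM against 800 in LNCaP, a log2 ratio of -1.86 (-2.04 to -1.68), and at 26.4 CPM against 115 in LNCaP-ENZ48, a log2 ratio of -2.12 (-2.44 to -1.82). At least 1 KLK3 UMI was found in 27 of 64 cells (42.2%) against 135 of 192 (70.3%), and in 33 of 290 (11.4%) against 279 of 870 (32.1%). The transcript was not absent from these cells, since the highest H2AFJ-negative cell of LNCaP held 2109 CPM, although the median cell held 0 against 156 CPM in controls. In RES-A a KLK3 UMI was found in 2 of 4629 cells, and RES-B stood at 30.4 CPM with a UMI in 18.0% of cells. KLK2, a kallikrein neighbour of KLK3, was at 213 against 303 CPM (log2 -0.51) and 33.3 against 41.1 CPM (log2 -0.31). KLK2 and KLK3 are near copies, so the counts of both are uncertain as levels.

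TMPRSS2 and FKBP5, also induced by androgens, differed less than KLK3. TMPRSS2, a membrane protease, was at 89.0 against 103 CPM (log2 -0.21, -0.53 to 0.09) in LNCaP and 18.8 against 31.2 CPM (log2 -0.73, -1.13 to -0.36) in LNCaP-ENZ48. FKBP5, a chaperone of steroid receptors, was at 9.45 against 17.2 CPM and 10.1 against 11.7 CPM, with intervals that include 0.

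SYT4, S100P and MT1G were lower as well. SYT4, a synaptotagmin of vesicle traffic, was at 18.9 against 68.9 CPM (log2 -1.87, -2.53 to -1.26) in LNCaP and at 23.4 against 117 CPM (log2 -2.31, -2.65 to -2.0) in LNCaP-ENZ48. S100P, a calcium-binding protein, was at 29.9 against 92.2 CPM (log2 -1.62) and 6.54 against 59.5 CPM (log2 -3.18). MT1G, a metallothionein that binds zinc and copper, was at 3.94 against 51.0 CPM (log2 -3.69, -5.33 to -2.45, from 5 UMIs) and at 13.1 against 82.1 CPM (log2 -2.65, -3.10 to -2.23). These genes were patchy also in controls: 24.0% and 24.6% of controls held an MT1G UMI, against 6.25% and 5.86% of H2AFJ-negative cells. SYT4 UMIs were held by 20.8% and 19.3% of controls against 10.9% and 8.97%.

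SYT4, S100P and MT1G belong to a list of 9 genes that vary together among LNCaP cells, a list taken from earlier work on these same libraries and not independent of them. All 9 were lower in H2AFJ-negative cells of both libraries, with median log2 ratios of -0.59 and -0.70, and 4 of them by 2-fold or more in each, beside 103 of all 7493 and 13 of all 7137 genes at the same minimum. The smallest differences were in CHCHD10, a mitochondrial protein, at 569 against 605 CPM and 616 against 693 CPM. GSTA1, a glutathione transferase, was at 5.51 against 14.6 CPM and 5.72 against 29.0 CPM. The sum of the 9 was 1125 against 1455 CPM (log2 -0.37, -0.45 to -0.29) and 1143 against 1608 CPM (log2 -0.49, -0.54 to -0.44), and without CHCHD10, which held the most UMIs, the log2 ratios were -0.61 and -0.80.

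CAMK2N1, an inhibitor of calmodulin-dependent kinase II, was at 11 against 70.2 CPM (log2 -2.67, -3.56 to -1.90) in LNCaP and 113 against 252 CPM (log2 -1.16, -1.31 to -1.01) in LNCaP-ENZ48. NQO1, a quinone reductase of the oxidative stress response, was at 135 against 272 CPM (log2 -1.01, -1.25 to -0.78) and 158 against 296 CPM (log2 -0.90, -1.03 to -0.78). In the resistant libraries these genes went different ways. RES-A and RES-B held CAMK2N1 at 46.6 and 689 CPM, NQO1 at 511 and 502 CPM, SYT4 at 1.13 and 88.3 CPM, S100P at 5.80 and 2.36 CPM, and MT1G at 4.40 and 0.364 CPM. MT2A, another metallothionein and named here after its values were seen, was at 724 against 1333 CPM (log2 -0.88) and 797 against 1158 CPM (log2 -0.54), and RES-A and RES-B held 296 and 1912 CPM.

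The 10 genes that led among those higher in both libraries differed by less than most of the 10 that led among those lower. SOX4, a transcription factor of progenitor cells, was at 354 against 189 CPM (log2 0.90, 0.73 to 1.07) in LNCaP and 255 against 177 CPM (log2 0.53, 0.41 to 0.64) in LNCaP-ENZ48. RES-A held 413 and RES-B 334 CPM of it. PCSK1N, an inhibitor of a prohormone convertase, was at 51.2 against 30 CPM (log2 0.77, 0.31 to 1.22) and 56.7 against 33.6 CPM (log2 0.76, 0.50 to 1.00). DNMT1, the maintenance DNA methyltransferase, was at 66.9 against 43.8 CPM (log2 0.61) and 51.5 against 36.9 CPM (log2 0.48). The other 7 genes that led by their smaller difference in the pair of libraries were DSEL, TCAF1, SESN3, EPB41L4A-AS1, PDXDC1, TUT4 and HES6, with log2 ratios between 0.35 and 0.74. PDXDC1 in LNCaP had an interval that includes 0 (-0.03 to 0.80). HES6, a helix-loop-helix factor, was at 150 against 106 CPM and 64.3 against 50.4 CPM.

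MDK, HMOX1, FLNA and TMSB10 were named after their values were seen. MDK, the growth factor midkine, was at 63.0 against 13.8 CPM (log2 2.19, 1.67 to 2.71) in LNCaP and 45.0 against 22.4 CPM (log2 1.00, 0.71 to 1.29) in LNCaP-ENZ48, and at least 1 MDK UMI was found in 34.4% against 16.7% and in 26.2% against 16.9% of cells. In LNCaP 1 cell held 20 of its 80 UMIs. It was not high in the resistant libraries, with 22.2 CPM (RES-A) and 2.56 CPM (RES-B). FLNA, the actin crosslinker filamin A, was at 52.8 against 26.1 CPM and 44.7 against 26.6 CPM. HMOX1, heme oxygenase, was at 139 against 62.7 CPM in LNCaP and 45.8 against 41.7 CPM in LNCaP-ENZ48. In LNCaP 1 cell held 52 of its 176 UMIs, and the share of cells with a UMI was even, at 45.3% against 45.8%. TMSB10, an actin-binding thymosin, was at 350 against 253 CPM (log2 0.47) and 316 against 261 CPM (log2 0.28).

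**Figure D2:**
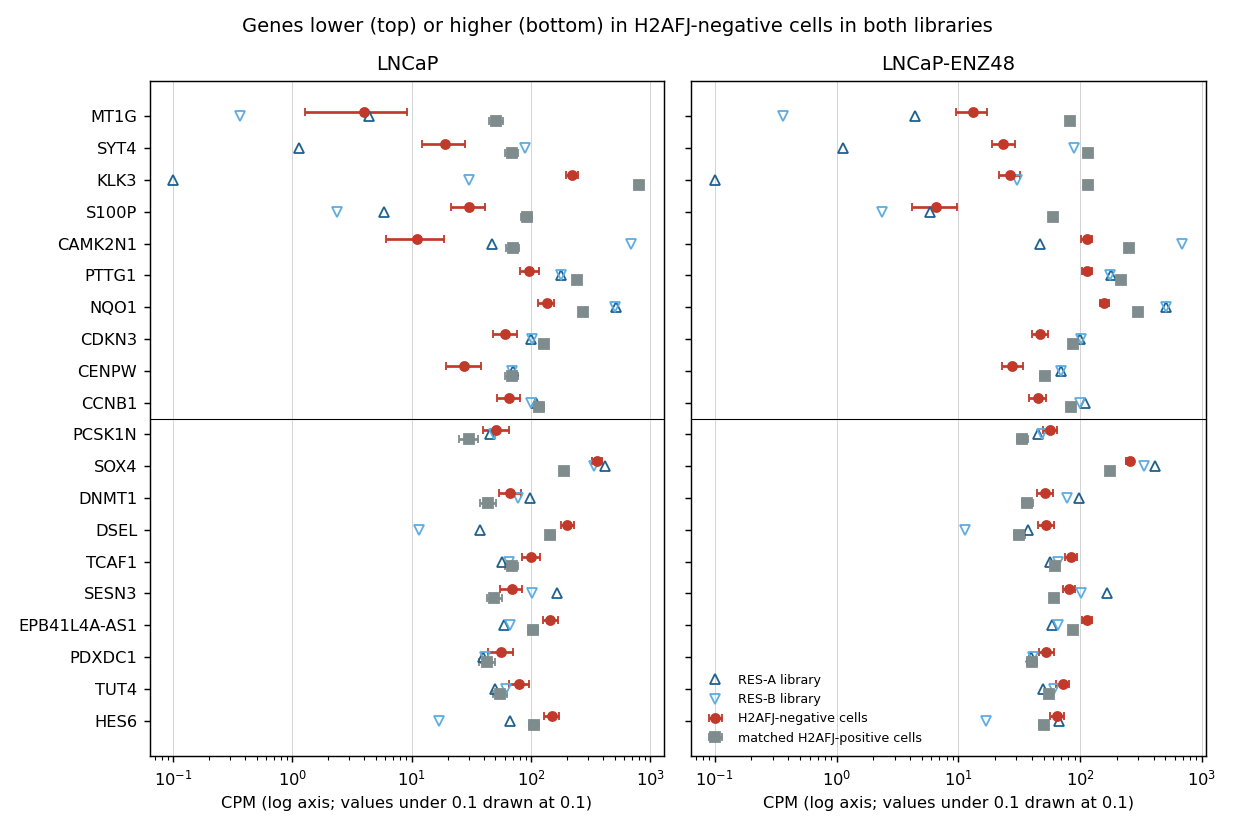
The 20 genes that led in both directions, in H2AFJ-negative and depth-matched H2AFJ-positive cells, with exact 95% counting intervals. LNCaP had 64 against 192 cells and LNCaP-ENZ48 290 against 870 cells. Among the lower genes the log2 ratio of CPM reached -3.69, for MT1G in LNCaP. Among the higher genes the log2 ratio stayed at or below 0.90, the value of SOX4 in LNCaP.

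Some of these genes were graded with the amount of H2AFJ when all cells of 1 range of depth were classed by their H2AFJ UMIs, a description added after seeing the data that shares its cells with the matched comparison. The genes given here were chosen after their values were seen. In LNCaP cells of 20000 to 30000 UMIs the classes of 0, 1, 2 to 3, 4 to 7 and 8 or more UMIs held 25, 38, 111, 304 and 503 cells. KLK3 stood at 153, 221, 378, 456 and 1004 CPM in these classes. In LNCaP-ENZ48 cells of 10000 to 15000 UMIs, with 141, 217, 571, 808 and 427 cells, KLK3 stood at 18.7, 19, 69.8, 106 and 178 CPM. It was thus higher in each class with more H2AFJ. NQO1 went from 120 to 334 CPM in LNCaP and from 163 to 353 CPM in LNCaP-ENZ48, and SYT4 from 14.2 to 93.3 CPM and from 11.9 to 182 CPM, both in the same order of classes. SOX4 went the other way, from 316 to 177 CPM and from 252 to 133 CPM, with the class of 1 UMI (258 CPM) above that of 0 in LNCaP-ENZ48. TMSB10 went from 385 to 228 CPM and from 348 to 230 CPM. Other genes had no such order in at least 1 library. In LNCaP, S100P stood at 9.47, 28.7, 22.2, 21.0 and 123 CPM, PTTG1 at 123, 134, 109, 161 and 253 CPM, and DSEL at 178, 203, 179, 173 and 127 CPM. In LNCaP-ENZ48, S100P went from 7.91 to 85.2 CPM and PTTG1 from 96.6 to 247 CPM, both in the order of classes. DSEL had no order there either. MT2A in LNCaP and KLK2 in LNCaP-ENZ48 had no order of classes either.

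**Figure D3:**
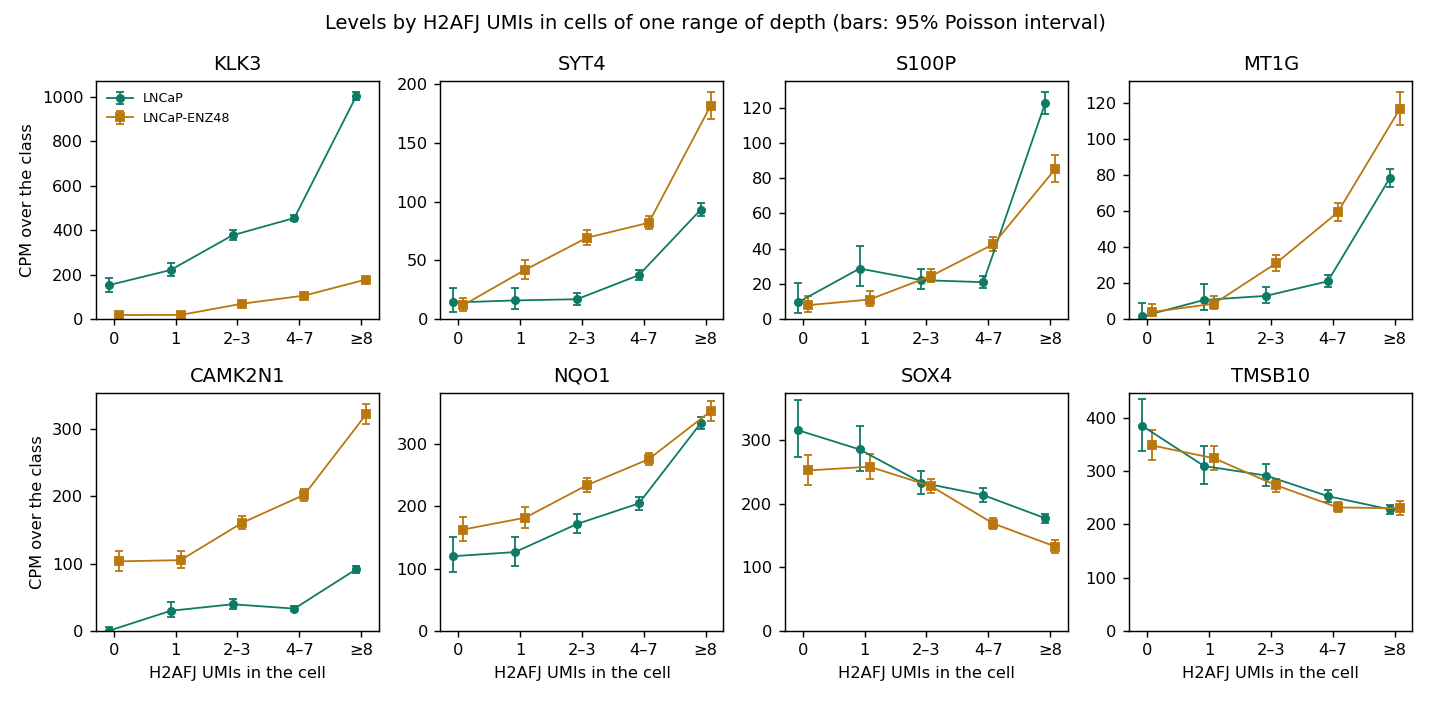
CPM of selected genes (vertical axes, linear and from 0) in cells of 1 depth range classed by their H2AFJ UMIs (horizontal axis), for LNCaP and LNCaP-ENZ48, with exact Poisson 95% intervals. KLK3, SYT4, MT1G and NQO1 climb from the class of 0 UMIs to that of 8 or more, and SOX4 and TMSB10 descend.

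Cells with a single H2AFJ UMI, 104 in LNCaP and 432 in LNCaP-ENZ48, were compared with matched controls in the same way, also as an addition after seeing the data. KLK3 was lower in them too, with log2 ratios of -1.64 and -1.62, as was SYT4 with -1.43 and -1.49. MDK was higher, with 1.26 and 0.92. The log2 ratios of SOX4 were 0.42 and 0.43. Of the 40 log2 ratios of the 20 leading genes, 10 were within the counting interval found in cells with no UMI, 28 were outside it and 2 had the opposite sign. In LNCaP, PTTG1 was at -0.11, CDKN3 at -0.10, PCSK1N at 0.11 and DSEL at -0.12.

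G2/M genes, which peak before and in mitosis, were lower in H2AFJ-negative cells. Of 54 genes, 49 passed the minimum in LNCaP, 47 of them lower, with a median log2 ratio of -0.61 and 12 at or past 2-fold, beside 103 of all 7493 genes at the same minimum that were 2-fold or more lower and 53.3% that were lower at all. In LNCaP-ENZ48 39 passed, 34 of them lower, with a median of -0.27 and 0 past 2-fold, beside 13 of all 7137 genes and 53.7%. PTTG1, the securin that holds back chromatid separation, was at 96.9 against 243 CPM and 114 against 215 CPM, and CCNB1, cyclin B1, at 65.4 against 117 CPM and 44.7 against 83.8 CPM. CDKN3, a phosphatase of cyclin-dependent kinases, was at 60.6 against 128 CPM and 46.9 against 87.0 CPM. CENPW, a centromere protein, was at 27.6 against 68.9 CPM and 27.8 against 51.2 CPM. The summed log2 ratio was -0.54 (-0.60 to -0.48) and -0.29 (-0.33 to -0.25). In low cycling cells, those at or below their library's median of S phase and G2/M UMIs, it was 0.013 and -0.0064. These same G2/M genes helped to choose the low cycling cells, which favours a ratio near 0, so no conclusion is drawn from it.

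Cells above their library's 90th percentile of G2/M UMIs were 3 of 64 H2AFJ-negative cells (4.69%, 0.977 to 13.1) against 20 of 192 controls (10.4%, 6.48 to 15.6) in LNCaP, and 22 of 290 (7.59%) against 72 of 870 (8.28%) in LNCaP-ENZ48. In cells with 1 H2AFJ UMI the G2/M sum was higher in LNCaP, at 0.48, and S phase was at 0.55 and 0.38. The S phase list itself was near even in H2AFJ-negative cells, with summed log2 ratios of 0.05 (-0.05 to 0.15) and 0.10 (0.04 to 0.16). In low cycling cells KLK3 and the other leading genes kept their direction except CCNB1, CDKN3 and SESN3 in LNCaP and DNMT1 in LNCaP-ENZ48.

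The other histone genes differed between the libraries. Transcripts of replication-dependent histone genes mostly lack a poly(A) tail, so their counts in these 3' libraries may not reflect their full level. The summed level of 14 replication-dependent histone genes was 821 against 1326 CPM (log2 -0.69, -0.79 to -0.60) in LNCaP and 977 against 902 CPM (log2 0.11, 0.06 to 0.17) in LNCaP-ENZ48. In low cycling cells these log2 ratios were -0.25 and -0.23, so the sign in LNCaP-ENZ48 turned. HIST1H4C, an H4 gene, was at 525 against 819 CPM and 531 against 476 CPM. HIST2H2AC, an H2A gene named after its values were seen, was at 18.9 against 73.8 CPM and 59.4 against 37.4 CPM. The 11 replication-independent genes other than H2AFJ summed to 4284 against 4997 CPM (log2 -0.22) and 4463 against 4602 CPM (log2 -0.04). H2AFZ, the H2A.Z gene, was at 1150 against 1443 CPM (log2 -0.33) and 1031 against 1078 CPM (log2 -0.06). In both libraries no replication-independent histone gene was 2-fold or more apart.

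Most other gene lists were near the median of all genes. The hypoxia list was lower, with summed log2 ratios of -0.29 (-0.35 to -0.23) and -0.19 (-0.22 to -0.15), and 13 of 19 and 15 of 20 measured genes lower. LDHA, lactate dehydrogenase A, was at 341 against 465 CPM and 412 against 528 CPM, and PGK1, a glycolytic kinase, at 366 against 453 CPM and 373 against 451 CPM. The amino acid stress list had summed log2 ratios of 0.08 and -0.03, immediate early genes -0.02 and -0.02, interferon-stimulated genes -0.18 and -0.11, mitochondrially encoded genes -0.06 and -0.07, and nuclear-retained RNAs -0.11 and 0.04. The senescence list, to which the background on H2A.J relates, had 4 of 17 genes above the minimum and log2 ratios of -0.15 and 0.13, set mostly by GDF15. CDKN1A, the p21 gene, was at 49.6 against 77.1 CPM in LNCaP and 52.6 against 38.5 CPM in LNCaP-ENZ48.

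Lists that the study had drawn up were read as well, and those chosen on these samples are not independent evidence. Genes of its initial clusters had summed log2 ratios of -0.03 and 0.01, genes of its ENZ-induced clusters -0.05 and -0.06, and PROSGenesis genes -0.07 and -0.08. The Persist list of 17 genes, at -0.59 (-0.66 to -0.53) and -0.41 (-0.45 to -0.37), had 15 and 16 genes lower. In low cycling cells its log2 ratio was 0.035 in LNCaP-ENZ48, while in LNCaP it kept its sign. In cells with 1 H2AFJ UMI it was -0.0042 in LNCaP, with 12 of 17 genes higher. In LNCaP-ENZ48 it was -0.17 (-0.21 to -0.14) in such cells, with 14 of 17 genes lower. Its members that differed most are mitotic genes, PTTG1 and HMMR in LNCaP and CCNB1, CDC20 and PTTG1 in LNCaP-ENZ48.

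**Figure D4:**
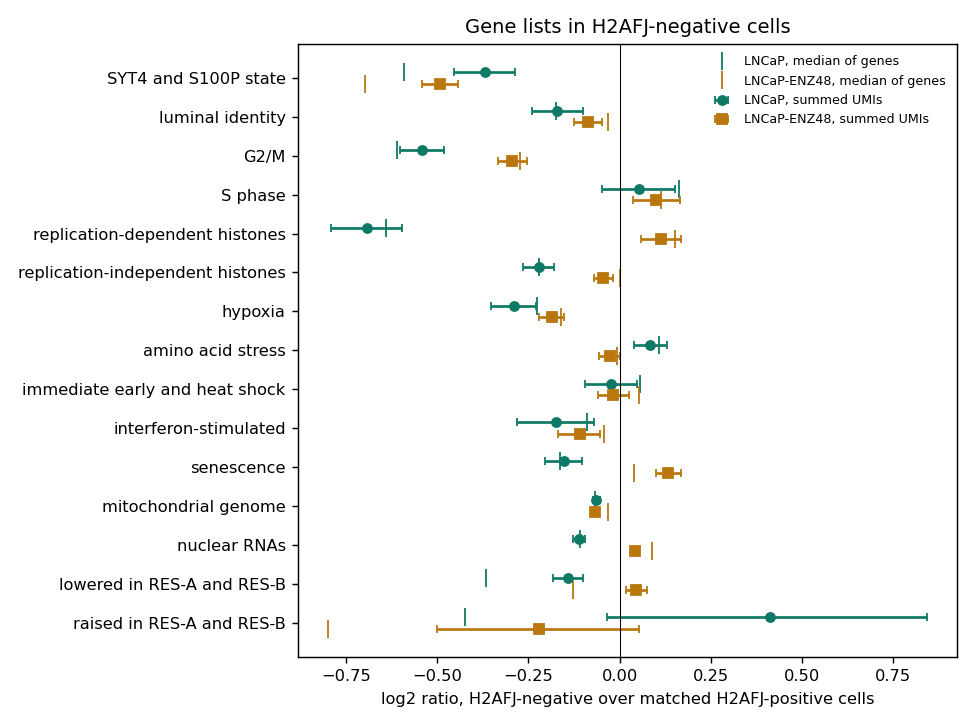
Log2 ratio of summed CPM of each gene list, H2AFJ-negative over depth-matched H2AFJ-positive cells (horizontal axis), in LNCaP (circles) and LNCaP-ENZ48 (squares) with exact 95% counting intervals, and vertical ticks at the median over the list's genes. The G2/M and SYT4 lists lie below 0 in both libraries, and the replication-dependent histones lie below 0 in LNCaP (-0.69) and above it in LNCaP-ENZ48 (0.11).

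To ask whether H2AFJ-negative cells resemble the resistant libraries, in which no H2AFJ UMI was counted, genes that both RES-A and RES-B held at 4-fold or more above, or below, both earlier libraries were read in them, with at least 50 CPM where the gene is high and H2AFJ left out. There were 5 raised genes (IGFBP5, TMSB4X, PAGE1, VIM and TUBA1A) and 8 lowered genes (GULP1, S100P, SAT1, BTG1, MT1G, GDF15, TRPM4 and PEG3). All comparisons with the resistant libraries share the LNCaP cells that the lists were chosen against.

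The raised genes stayed below their levels in the resistant libraries. Their sum was 50.4 against 37.9 CPM in LNCaP (log2 0.41, -0.04 to 0.84) and 38.4 against 44.8 CPM in LNCaP-ENZ48 (log2 -0.22, -0.50 to 0.05). IGFBP5, a secreted binding protein of insulin-like growth factors, stood at 300 CPM (RES-A) and 114 CPM (RES-B), where 61.7% and 24.4% of cells held a UMI. A UMI was found in 0 of 64 and 0 of 290 H2AFJ-negative cells, which allows a share of up to 4.69% and 1.03%. PAGE1, a cancer-testis antigen, was lower than in controls, at 9.45 against 17.2 CPM (log2 -0.86, -1.88 to 0.04) and 5.72 against 14.2 CPM (log2 -1.31, -2.04 to -0.64), far from the 360 CPM of RES-A and the 70.4 CPM of RES-B. TMSB4X, an actin-binding thymosin, was at 17.3 against 17.2 CPM and 19.1 against 23.3 CPM, with 231 and 140 CPM in the resistant libraries.

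TUBA1A and VIM were higher than in controls, at low counts. TUBA1A, an alpha-tubulin, was at 15.7 against 1.02 CPM in LNCaP (20 against 4 UMIs, log2 3.94, 2.36 to 5.95), found in 12 of 64 against 3 of 192 cells, and 1 cell held 7 of the 20 UMIs. In LNCaP-ENZ48 it was at 8.72 against 4.72 CPM (log2 0.89, 0.20 to 1.55), in 26 of 290 against 45 of 870 cells. VIM, the intermediate filament vimentin, was at 7.87 against 2.56 CPM (10 UMIs in each set) and 4.91 against 2.45 CPM. Both stayed below the resistant libraries, where TUBA1A was at 108 and 55.3 CPM and VIM at 211 and 58.6 CPM. NR2F1, C2orf54, TSPAN8 and VAV3 reached 50 CPM in only 1 of the resistant libraries. NR2F1, C2orf54 and TSPAN8 had 0 UMIs in all H2AFJ-negative cells. Controls had 0 as well, apart from 2 UMIs of C2orf54 in LNCaP-ENZ48, so these genes separate nothing here. VAV3 was found in 2 of 64 and 3 of 290 H2AFJ-negative cells, against 4 of 192 and 8 of 870 controls.

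Among lowered genes the differences were uneven. MT1G and S100P were lower, as described, and GULP1, an adaptor of engulfment, was at 99.2 against 150 CPM (log2 -0.59, -0.88 to -0.31) and 127 against 193 CPM (log2 -0.60, -0.75 to -0.46), while RES-A and RES-B held 0.0341 and 0.433 CPM. TRPM4, a calcium-activated cation channel, was at 43.3 against 70.9 CPM and 49.6 against 62.6 CPM. PEG3, almost silent in RES-A, was at 311 against 314 CPM (log2 -0.01, -0.18 to 0.15) and 110 against 104 CPM (log2 0.08, -0.09 to 0.25). BTG1 had log2 ratios of 0.05 and 0.21, and SAT1, which acetylates polyamines, 0.06 and 0.08. GDF15, a stress-induced cytokine, was at 3146 against 3474 CPM and 2434 against 2218 CPM and held most of the UMIs. The sum of the 8 gave -0.14 (-0.18 to -0.10) and 0.05 (0.02 to 0.07), and without GDF15 -0.14 and -0.11.

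**Figure D5:**
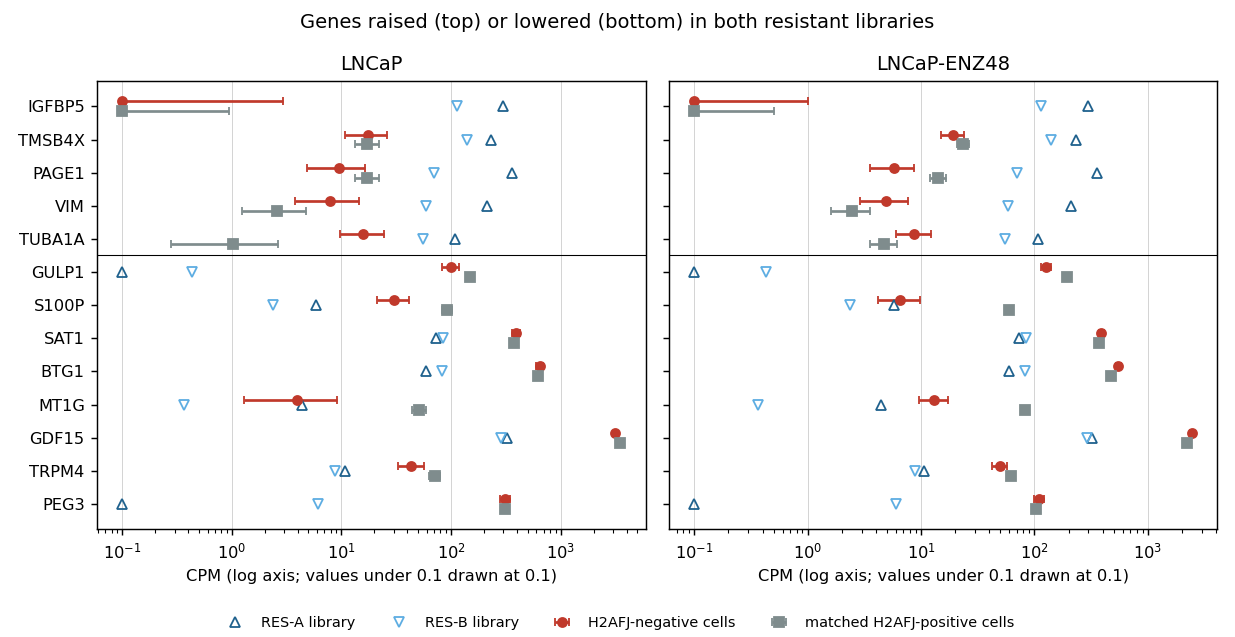
CPM (horizontal axis, log scale) of the 5 genes raised and the 8 lowered in RES-A and RES-B, in H2AFJ-negative cells, their matched controls (both with exact Poisson 95% intervals) and the whole resistant libraries, with values under 0.1 CPM drawn at 0.1. For most genes the marks of H2AFJ-negative cells stay near those of the controls. For MT1G and S100P they lie toward or at the levels of the resistant libraries. For TUBA1A and VIM they lie toward those levels, at low counts and still below them.

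Longer lists were read in the same way. They took genes at 2-fold or more and were chosen against the other library made before resistance, so that no cell read in them had been used to choose them, an addition after seeing the data. Of 49 raised genes read in LNCaP, 46 passed the minimum, 21 higher and 25 lower in H2AFJ-negative cells, with a median log2 ratio of -0.02. Of 53 read in LNCaP-ENZ48, 50 passed, 22 higher and 28 lower, with a median of -0.07. IGFBP5, TUBA1A and VIM were below the minimum in both libraries. TUBA1A and VIM were higher in H2AFJ-negative cells at low counts, as given above. The sums, which include all listed genes, gave 0.02 (-0.03 to 0.06) and -0.03 (-0.05 to -0.01). Of 36 lowered genes in LNCaP 28 were lower, with a median of -0.16, and of 59 in LNCaP-ENZ48 37 were lower, with a median of -0.09. The 3 that were 2-fold or more lower were MT1G, KLK3 and S100P in both. Among all genes measured, 3994 of 7493 and 3833 of 7137 were lower.

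Few H2AFJ-negative cells were within the range of RES-A. After thinning to 5000 UMIs, the 5th percentile of RES-A cells was 1 UMI summed over the raised genes and the 95th percentile 7 UMIs over the lowered genes, and these were taken as limits. Both limits were met by 94.8% of RES-A cells, by 0 of 64 H2AFJ-negative cells of LNCaP (which allows up to 4.69% at 3 counts, with an exact upper bound of 5.6%) against 2 of 192 controls, and by 13 of 290 (4.48%, 2.41 to 7.54) in LNCaP-ENZ48 against 34 of 870 (3.91%, 2.72 to 5.42). With cells thinned to 10000 UMIs, where the limits were 4 and 14, 1 of 48 and 1 of 215 H2AFJ-negative cells met both, against 0 of 156 and 1 of 645 controls. The limit on lowered genes alone was met by 7 of 64 (10.9%, 4.51 to 21.2) against 11 of 192 (5.73%, 2.89 to 10.0) and by 56 of 290 (19.3%) against 173 of 870 (19.9%). At 10000 UMIs these shares were 20.8% against 3.85% in LNCaP and 19.1% against 16.6% in LNCaP-ENZ48. For RES-B the limit on raised genes was 0 UMIs and separates nothing.

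TFPI, GULP1, ADGRG6, SLC22A3 and ETV1 had, like H2AFJ, at least 30 CPM in both libraries before resistance and at most 1 CPM in both resistant ones. SLC22A3, a transporter of organic cations, and ETV1, an ETS factor, had 0 UMIs in RES-A and RES-B. In H2AFJ-negative cells SLC22A3 was at 43.3 against 57.1 CPM and 51.5 against 57.1 CPM, and ETV1 at 73.2 against 90.1 CPM and 38.2 against 41.3 CPM, with log2 intervals that include 0. Cells with 0 UMIs over all 5 genes were 4 of 64 (6.25%, 1.73 to 15.2) against 5 of 192 (2.60%, 0.851 to 5.97) in LNCaP and 22 of 290 (7.59%, 4.82 to 11.3) against 42 of 870 (4.83%, 3.50 to 6.47) in LNCaP-ENZ48. In RES-A and RES-B such cells were 99.7% and 98.8%. Free RNA in the droplets can give such UMIs, and its share was not estimated. At 5000 UMIs the shares were 31.2% against 14.6% and 24.8% against 18.2%.

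The genes on both sides of H2AFJ on chromosome 12 were read as well. The 10 nearest measured genes on each side had a median log2 ratio of -0.09 in LNCaP (6 higher, 14 lower) and -0.13 in LNCaP-ENZ48 (7 higher, 13 lower), and their whole-library medians against LNCaP were 0.12 in RES-A and 0.37 in RES-B. WBP11, a splicing factor and the nearest measured gene after H2AFJ, was at 37.0 against 45.3 CPM in LNCaP (log2 -0.29, -0.79 to 0.18). In LNCaP-ENZ48 it was at 28.9 against 37.0 CPM (log2 -0.36, -0.68 to -0.05). MGST1, a microsomal glutathione transferase, was at 337 against 443 CPM (log2 -0.39) in LNCaP, and its log2 ratio in LNCaP-ENZ48 was -0.40. LDHB, lactate dehydrogenase B, was at 235 against 319 CPM, while RES-A held 1005 CPM. HIST4H4, the histone gene beside H2AFJ on the minus strand, had 1 UMI in H2AFJ-negative cells of each library, too few for a ratio.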

How the data were processed

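Single-cell 3' libraries of 4 sorted cultures were read, with groups from the sample titles and 1 library per group. The deposited values are whole UMI counts per gene and barcode over 33538 genes, which the authors made with Cell Ranger 3.0.2 on a prebuilt GRCh38 index. After the filter on genes, UMIs and mitochondrial share, 2019 of 2358, 4565 of 4812, 4629 of 5156 and 4239 of 4907 barcodes remained (LNCaP, LNCaP-ENZ48, RES-A, RES-B), with 55696198, 68158371, 58657527 and 57709230 UMIs. Scrublet (scanpy 1.11.5) predicted 17 doublets in LNCaP and 0 in LNCaP-ENZ48, so few that the calls were not used and doublets were kept, and the cells with the highest scores were left out as an alternative.

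The members, gene lists and comparisons were chosen with earlier results of these data known. Levels carry exact Poisson intervals, ratios exact conditional binomial intervals and shares Clopper-Pearson intervals, all at 95% (scipy 1.17.1). A count of 0 was set against a floor of 3 UMIs. Genes with fewer than 10 CPM over both sets were left out of list medians. Named genes were the 10 with the largest smaller difference in each direction among genes with 50 CPM in both libraries, a fixed panel and the genes of the resistance lists. Alternatives varied the filter, matching, thresholds, thinning and definition of members, and 4 of them were added after seeing the data. Some genes and 1 gene list are not reported here. The steps were tested on simulated data. Coordinates and the promoter came from GENCODE 44 and RefSeq, matched by gene ID.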

Additional observations from a re-analysis of the deposited data

Results flagged for a closer look

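The values below had opposite directions in H2AFJ-negative cells of LNCaP and LNCaP-ENZ48, with counting intervals on both sides of 0. Each library is a single sample, so the difference between the libraries was not tested.

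The replication-dependent histone genes had a summed log2 ratio of -0.69 in LNCaP and 0.11 in LNCaP-ENZ48, and HIST1H4C alone had -0.64 and 0.16. LNCaP members also held fewer cells high in G2/M UMIs (4.69% against 10.4%), a share that was nearly even in LNCaP-ENZ48 (7.59% against 8.28%). In low cycling cells the summed log2 ratios of these histone genes were -0.25 and -0.23. Their counts may miss transcripts without a poly(A) tail, as given above.

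CDKN1A had a log2 ratio of -0.64 (-1.05 to -0.24) in LNCaP and 0.45 (0.20 to 0.70) in LNCaP-ENZ48. The senescence list had -0.15 and 0.13, the genes lowered in resistance -0.14 and 0.046, and the nuclear-retained RNAs -0.11 and 0.042. In LNCaP-ENZ48 the lowered genes turned sign under 7 alternatives and stood at -0.11 without GDF15, and the nuclear-retained RNAs turned under 4 there and 2 in LNCaP. The genes of the study's initial clusters had -0.029 and 0.0083, both close to even, and the LNCaP-ENZ48 value turned sign under 6 alternatives and the LNCaP value under 1. The senescence list and the replication-dependent histones each turned under 2 alternatives in LNCaP-ENZ48, as did these histones in LNCaP.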

How the results depend on the processing

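No paired analysis was possible because each group is 1 library. Among 168 recomputed values that answer a comparison, 106 stayed within their counting interval or within 1.5 times a count, 52 moved and 10 turned sign. Among 774 values of single genes and other lists, 555 stayed, 186 moved and 33 turned. The causes were not tested. Values are log2 ratios of summed UMIs, LNCaP before LNCaP-ENZ48 where a pair is given.

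Other thresholds changed the counts of genes. At 1.5-fold 22 were higher and 73 lower in LNCaP, and 3 and 19 in LNCaP-ENZ48. At a minimum of 20 CPM the counts were 17 and 51, and 5 and 8, and at 100 CPM 1 higher and 6 lower in LNCaP and 3 lower in LNCaP-ENZ48. The number lower in LNCaP was 12 with depth bins weighted (1 higher), 9 with controls matched on mitochondrial share, 13 over 1 range of depth, 4 with members of 0 or 1 UMI (1 higher) and 3 for cells with 1 UMI. LNCaP-ENZ48 had 8 lower over 1 range of depth and 8 without doublet candidates, and LNCaP had 6 higher in low cycling cells. The share of negatives was 2.36% in LNCaP under the study's own filter, and 27.0% and 24.1% after thinning to 5000 UMIs.

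The G2/M sum changed with several settings, of which low cycling cells were themselves chosen by S phase and G2/M UMIs. In LNCaP it was -0.34 with bins weighted, -0.16 with controls matched on mitochondrial share, -0.18 over 1 range of depth, -0.47 under the study's filter, 0.013 in low cycling cells, 0.11 with members of 0 or 1 UMI and 0.48 for cells with 1 UMI. In LNCaP-ENZ48 it was -0.25 against controls with 4 or more UMIs, -0.34, -0.50, -0.0064, -0.14 and -0.066 for mitochondrial matching, 1 depth range, low cycling cells, members of 0 or 1 UMI and cells with 1 UMI. CCNB1 in LNCaP was at 0.51 in low cycling cells and 0.042 over 1 depth range. The S phase sum was 0.28 (mitochondrial matching), -0.31 (1 depth range), 0.37 (members of 0 or 1 UMI) and 0.55 (cells with 1 UMI) in LNCaP, and 0.17 (controls with 4 or more), 0.29 and 0.38 in LNCaP-ENZ48.

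The SYT4 list was at -0.46 in LNCaP under the study's filter, and in LNCaP-ENZ48 at -0.57 against controls with 4 or more UMIs, -0.61 in low cycling cells and -0.44 over 1 depth range.

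The genes raised in resistance summed to 1.09 over 1 depth range (25 members) and -0.27 for cells with 1 UMI in LNCaP. Those lowered were at -0.21 (bins weighted), -0.28 (low cycling), -0.29 (mitochondrial matching) and -0.19 (1 depth range) in LNCaP. In LNCaP-ENZ48 their small excess turned to -0.023 at 10000 UMIs or more, -0.0063 against controls with 4 or more UMIs, -0.014 with the list chosen against LNCaP alone, -0.043 in low cycling cells, -0.049 with members of 0 or 1 UMI, -0.064 over 1 depth range and -0.13 for cells with 1 UMI, and was 0.016 with mitochondrial matching.

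Other signs that turned were small or rested on the definition. For cells with 1 UMI, LNCaP had 0.0072 for initial cluster genes, 0.079 and 0.41 for replication-independent and replication-dependent histones, 0.092 for nuclear RNAs, 0.073 for CENPW and -0.12 for DSEL, and LNCaP-ENZ48 -0.0037 for initial cluster genes, 0.048 for replication-independent histones, -0.093 for the senescence list and -0.00010 for nuclear RNAs. With members of 0 or 1 UMI, LNCaP had 0.058 for replication-dependent histones and 0.021 for nuclear RNAs, and LNCaP-ENZ48 0.019 for replication-independent histones. In low cycling cells, LNCaP had 0.024 for replication-independent histones, -0.16 for SESN3 and 0.019 for CDKN3, and LNCaP-ENZ48 -0.017 for initial cluster genes, 0.035 for Persist, 0.00668 and -0.23 for replication-independent and replication-dependent histones, -0.017 for nuclear RNAs and -0.10 for DNMT1. With mitochondrial matching, mitochondrially encoded genes were at 0.00088 in LNCaP, and initial cluster genes at -0.013 and nuclear RNAs at -0.016 in LNCaP-ENZ48. LNCaP-ENZ48 also had -0.00024 for initial cluster genes, -0.040 for replication-dependent histones and -0.031 for the senescence list over 1 depth range, -0.00658 for initial cluster genes with bins weighted, and -0.0062 for these and -0.0093 for nuclear RNAs at 10000 UMIs or more.

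KLK3, SYT4, S100P, MT1G, CAMK2N1, NQO1, SOX4 and PCSK1N were lower or higher in the same direction in both libraries under every alternative run.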

Other observations

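The amino acid stress genes that differed most were ATF3, a stress-induced transcription factor, at 56.7 CPM in H2AFJ-negative against 29.7 CPM in H2AFJ-positive LNCaP cells and 24.8 against 20.6 CPM in LNCaP-ENZ48, and SLC7A11, the cystine transporter, at 229.9 against 164 CPM and 92.1 against 86.7 CPM. VEGFA, the vascular growth factor of the hypoxia list, was at 22.0 against 28.7 CPM in LNCaP and 18.8 against 33.9 CPM in LNCaP-ENZ48. These genes were named after their values were seen.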
